A study of Mus musculus with 12 samples.

Results

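The comparison set the hippocampus at circadian time 12 (CT12) against CT6, that is, dusk against mid-day of the animals' own clock. It used the 6 of 12 arrays whose titles carry those times, 3 at CT12 (mice 10, 11 and 12) and 3 at CT6 (mice 5, 6 and 7). All were adult, male, wild-type mice kept without light before sampling, the CT12 mice for 48 h and the CT6 mice for 42 h. The other 6 arrays, 3 mice at CT0 after 36 h of darkness and 3 at CT18 after 30 h, served to estimate the spread and to give a second 6-hour step. Total hippocampal RNA of 1 mouse was labelled with Cy3 and hybridised to a 1-colour Agilent array, so a value is the RNA level of the tissue as a whole. Hours in darkness and circadian time move together and cannot be told apart. On all 3 slides each time sat at a place of its own, which cannot be told apart from time either.

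The mammalian clock is a loop of transcription. The activators CLOCK and BMAL1 (the product of Arntl) bind E-box sequences and switch on their own repressors, the Period and Cryptochrome genes, which accumulate through the day and shut the activators down. REV-ERB and ROR proteins form a second loop on Arntl, and the D-box factors Dbp, Tef and Hlf carry the rhythm to other genes. In nocturnal rodents the adrenal glucocorticoid hormone rises towards dusk, and the hippocampus is rich in the receptors that read it, so a dusk sample can differ from a mid-day one in both the clock and the hormone response.

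Values are log2 intensity relative to the 75th percentile of the array, and a difference is CT12 minus CT6 on that scale. The tests covered 24090 genes. On each array 59.3% to 77.1% of the 59305 non-control spots were well above background and 0 were saturated, and the number of arrays limits the precision. The 77.1% was CT0 mouse 3, and the next highest was 67.1%. CT0 mouse 1 alone was marked for evaluation by the extraction software. Its median local background was 100, against 25 to 37 on the other arrays. The library of CT12 mouse 11 stood apart: across genes it correlated with the others at 0.945 to 0.965, against at least 0.984 among the other 11. All 9 measured dentate granule cell markers and all 9 markers of CA pyramidal cells lay well above background on the 6 arrays. Relative to their CT6 means, the dentate markers had medians of 0.06, -1.63 and -0.06 in CT12 mice 10, 11 and 12. The CA markers had -0.36, -2.05 and -0.09, so both lists were low in mouse 11. Neurod6, a transcription factor of forebrain excitatory neurons, read 1.93, -2.34 and 2.47 in CT12 mice 10, 11 and 12, against 2.79, 2.59 and 2.55 in CT6 mice 5, 6 and 7. Pcp2, a gene of cerebellar Purkinje cells, read -1.37, 7.13 and -1.68 in the same CT12 mice, against -1.69, -2.07 and -1.79 at CT6. The library of mouse 11 is therefore low in a forebrain neuron gene and high in a cerebellar one, against its hippocampal label, and lists, calls and the genes it moved are also given without it. Ttr, which the choroid plexus makes in bulk, read 7.58, 6.67 and -0.12 at CT12, against 0.20, -1.24 and 7.34 at CT6, so 2 CT12 libraries and 1 CT6 library were high.

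At dusk, 5 genes were higher than at mid-day and 0 were lower (limma, adjusted p under 0.05, 0.0208% of the genes tested, all higher). At an unadjusted p under 0.05 there were 1091 higher genes (4.53%) and 1770 lower (7.35%). The genes were Tsc22d3, Plin4, Arrdc2, Maff and Gm6277, each with an adjusted p of 0.0409. Without CT12 mouse 11, 6 genes passed (0.0249%), 5 higher (0.0208%) and 1 lower (0.00415%). At an unadjusted p under 0.05 there were then 1896 genes (7.87%), 701 higher (2.91%) and 1195 lower (4.96%). Tsc22d3 and Plin4 were the 2 called both times.

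Tsc22d3 encodes GILZ, a leucine zipper protein through which glucocorticoids dampen inflammation. The probe maps to chromosome X, 137074094 to 137074153, on mm9. It read 3.85, 4.22 and 4.03 in CT12 mice 10, 11 and 12, against 2.82, 2.72 and 2.86 in CT6 mice 5, 6 and 7. Every dusk value lay a full log2 unit or nearly so above every mid-day value. The means were 4.03 ± 0.18 at CT12 and 2.80 ± 0.07 at CT6 (SD, n = 3), and the gene rose by 1.23 ± 0.13 (SE, 2.35-fold). Without mouse 11 the difference was 1.14 ± 0.13 (limma, adjusted p = 0.0351). Each of the 3 slides held 1 mouse per time, and within the slides without mouse 11 the differences were 1.03 and 1.17, below that within the slide with it.

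Plin4, which encodes a perilipin that coats lipid droplets, read 1.47, 0.56 and 0.91 at CT12, against -1.57, -1.69 and -1.31 at CT6. The probe maps to chromosome 17, 56240055 to 56240114 (mm9). The means were 0.98 ± 0.46 and -1.52 ± 0.19, and it rose by 2.50 ± 0.27 (5.67-fold). Here the library of mouse 11 was the lowest of the CT12 values, and without it the difference was 2.71 ± 0.28 (limma, adjusted p = 0.0296). The differences within the slides were 3.04, 2.25 and 2.22.

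Arrdc2, an arrestin-domain gene, read 2.62, 2.77 and 2.64 at CT12, against 1.54, 1.48 and 1.65 at CT6, and rose by 1.12 ± 0.13 (2.17-fold). The probe maps to chromosome 8, 73359065 to 73359124 (mm9), and a second probe of the gene gave 1.19. The groups were tight and far apart, but without mouse 11, where the difference was 1.07 ± 0.15, it missed the threshold (limma, adjusted p = 0.0902).

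Maff, a small bZIP transcription factor of the MAF family, read -3.85, -3.73 and -4.12 at CT12, against -5.62, -6.05 and -5.40 at CT6. The probe maps to chromosome 15, 79189442 to 79189501 (mm9). It was well above background on all 3 CT12 arrays and on 0 of the 3 CT6 arrays, so its mid-day level is only a bound. On the scale used here it was at least 3.02-fold higher at CT12. That bound sets the CT12 mean against, on each CT6 array, the higher of the dimmest signal well above background and the probe's own. Without mouse 11 Maff missed the threshold (limma, adjusted p = 0.0791). With normexp background correction its difference was 0.43 and did not pass either (limma, adjusted p = 0.308). The bound therefore does not carry over to another background correction. Gm6277, a gene model of unknown function, was likewise dim: -4.78, -4.55 and -4.93 at CT12, against -5.85, -6.05 and -5.71 at CT6. On the scale used here it was at least 1.79-fold higher at CT12, and its adjusted p was 0.0716 without mouse 11 (limma). With normexp its difference was only 0.24 (limma, adjusted p = 0.455). With no filter on dim probes 0 genes passed, and the adjusted p was 0.124 for Maff and 0.140 for Gm6277 (limma). Requiring a signal well above background on all 12 arrays dropped both genes.

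The calls rested on few arrays. Tsc22d3 passed in 6 and Plin4 in 5 of the 12 repeats that each omit 1 library, Maff and Arrdc2 in 3 and Gm6277 in 1. The limma count was 0 without CT6 mouse 5, 6 or 7, CT0 mouse 1 or 3 or CT18 mouse 14, where 1421 to 2569 genes had an unadjusted p under 0.05, and the adjusted p values of these 5 genes reached 0.265 to 0.286. Omitting CT0 mouse 2 gave 3 genes, and omitting CT12 mouse 12 gave 76. With slide as a block 0 genes passed (limma, 3703 at an unadjusted p under 0.05), and the adjusted p was 0.0755 for Tsc22d3, Plin4 and Arrdc2 and 0.0872 for Maff and Gm6277. The 5 differences kept their direction in all of these settings.

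**Figure D1:**
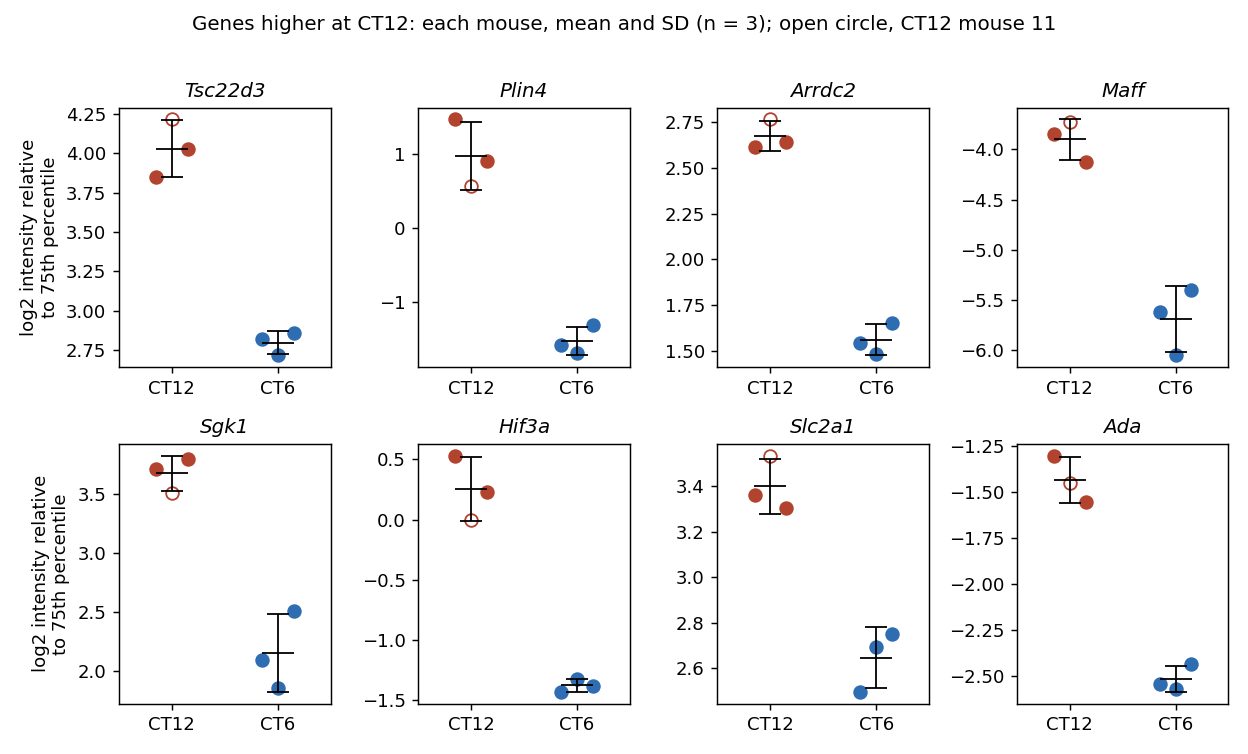
Values of 8 genes in each mouse, on the log2 scale used in the text, with CT12 left of CT6. Bars give the mean and SD of 3 mice, and the open circle is CT12 mouse 11. In each panel the 3 CT12 values lie above the 3 CT6 values. Tsc22d3, Plin4, Arrdc2 and Maff passed the adjusted threshold, while Sgk1, Hif3a, Slc2a1 and Ada did not.

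Genes known to be induced by glucocorticoids were mostly higher at dusk. Of 26 measured, 22 had a difference above 0, against 44.9% of all genes, and the median was 0.39 (1.31-fold), against -0.03 over all genes. Those passing the adjusted threshold were Tsc22d3, Plin4 and Arrdc2, 3 higher and 0 lower (0.0208% of all genes passed, all higher). At an unadjusted p under 0.05, 16 were higher (4.53% of all genes) and 0 lower (7.35%). In 17 of the 26 every CT12 value lay above every CT6 value, as in 5.82% of all genes. Without mouse 11, 24 lay above 0 (47.7% of all genes), the median was 0.46 and 2 passed, both higher (0.0208% of all genes). At an unadjusted p under 0.05, 15 were then higher (2.91% of all genes), and 20 did not overlap (8.6%). The list medians within the 3 slides were 0.41, 0.47 and 0.50. With the choroid plexus level as a covariate the median was 0.41. Without the 5 libraries high in choroid plexus genes it was 0.46, but there mouse 12 is the only CT12 mouse. Earlier results of these data were known when the list was written, so it is no independent evidence of a direction. In tissue RNA, fewer cells of a type and less RNA per cell cannot be told apart.

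Sgk1, a kinase that steroid hormones switch on and that acts on ion channels and transporters, read 3.71, 3.51 and 3.80 at CT12, against 2.09, 1.85 and 2.51 at CT6. The lowest dusk value was a full log2 unit above the highest mid-day value. The difference was 1.52 ± 0.20 (SE), which missed the threshold narrowly (limma, adjusted p = 0.0543, and 0.0909 without mouse 11). Hif3a, a hypoxia-inducible factor subunit that glucocorticoids also raise, read 0.53, -0.00 and 0.23, against -1.43, -1.32 and -1.38 at CT6. Its difference was 1.63 ± 0.23 (limma, adjusted p = 0.0689, and 0.0909 without mouse 11), and its 3 probes ranged from 0.86 to 1.87. Nfkbia, the inhibitor that holds NF-kappaB in the cytoplasm, read 3.26, 3.52 and 3.74, against 2.59, 2.49 and 2.79 at CT6 (difference 0.88 with all arrays and without mouse 11, limma adjusted p = 0.120 and 0.184).

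Smaller differences in the list included Sult1a1, a sulfotransferase (0.65), Pnpla2, the lipase ATGL that starts the breakdown of stored fat (0.60), Mfsd2a, a lipid transporter of the blood-brain barrier (0.54), and Rhou, a small GTPase (0.42). Without mouse 11 they were 0.74, 0.47, 0.49 and 0.50, and none passed. Fkbp5, a co-chaperone of the steroid receptors and a standard marker of their activity, read 2.06, 0.42 and 2.09 at CT12, against 1.65, 1.51 and 1.44 at CT6. Its difference was -0.01 with all arrays and 0.54 without mouse 11, so that 1 library decided its value. Zbtb16, a zinc finger repressor, likewise read 3.04, 1.03 and 3.35 at CT12, against 2.94 to 3.01 at CT6. The members below 0 in both fits were Cebpd (-1.02, and -0.50 without mouse 11), which read 5.16 in CT6 mouse 5 against 2.45 and 2.34 in the other CT6 mice, and Angptl4 (-0.13). The metallothioneins Mt1 and Mt2 had differences of 0.21 and 0.22, with overlapping groups. Of the receptors and enzymes that set the hormone signal, Nr3c2, the mineralocorticoid receptor, had a difference of -0.86 (-0.31 without mouse 11), and Hsd11b1, which regenerates active hormone, 0.51 (0.23 without it). Over the 5 measured genes of that kind the median was -0.00.

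Promoter windows of Sgk1, which did not pass, and of Maff, which did, were picked to be shown for the letters they carry. The windows are the 250 bases before the start of transcription on GRCm38.p6, from RefSeq, 5′ to 3′ on the gene's strand, and positions count back from the start. In the Sgk1 window, the fifth of 6 start sites (chr10:21993640-21993889, + strand), capitals mark the glucocorticoid response half-site AGAACA or its reverse complement at -242, -189 and -180, and the E-box CACGTG at -246, which overlaps the first half-site. In the Maff window, the second of 3 start sites (chr15:79347270-79347519, + strand), capitals mark the E-box at -191 and the cAMP response element TGACGTCA at -29.
Sgk1: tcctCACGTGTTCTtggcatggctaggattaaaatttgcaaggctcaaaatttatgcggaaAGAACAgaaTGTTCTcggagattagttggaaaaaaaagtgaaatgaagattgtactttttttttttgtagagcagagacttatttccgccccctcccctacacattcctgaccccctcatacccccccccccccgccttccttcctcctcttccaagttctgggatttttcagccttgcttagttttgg
Maff: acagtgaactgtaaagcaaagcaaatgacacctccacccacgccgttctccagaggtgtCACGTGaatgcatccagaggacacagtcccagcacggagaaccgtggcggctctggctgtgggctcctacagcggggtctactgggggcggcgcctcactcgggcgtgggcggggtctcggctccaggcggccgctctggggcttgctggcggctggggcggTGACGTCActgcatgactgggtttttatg

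Both strands were searched in 32851 windows of the same length. The half-site AGAACA was in 16.1% of them, the E-box CACGTG in 6.02% and TGACGTCA in 1.55%. The 23 glucocorticoid-responsive genes with a window had 33 windows, of which 5 held the half-site (in Sgk1, Tsc22d3 and Sult1a1). Of the other called genes, Tsc22d3 held it in the second of its 3 windows. The single windows of Plin4 and Arrdc2 held neither the half-site, the E-box nor the cAMP response element. A match describes the letters and is neither a binding site nor a cause, and enhancers further away were not searched.

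Among the clock genes, most repressors were higher at dusk in every mouse, but none of the 20 clock genes described passed the adjusted threshold. Of 10 repressors, 8 had a difference above 0 (44.9% of all genes) and the median was 0.44 (1.36-fold), or 0.35 without mouse 11. The groups did not overlap in 7 with CT12 higher (5.82% of all genes) and in 1 with CT12 lower (10.2%), and the same counts held without mouse 11 (8.6% and 14.8%). At an unadjusted p under 0.05, 6 were higher (4.53% of all genes) and 1 was lower (7.35%). The medians within the slides were 0.37, 0.64 and 0.35.

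Cry1, a cryptochrome and the strongest repressor of CLOCK and BMAL1, read -3.87, -3.86 and -4.22 at CT12, against -5.07, -5.95 and -5.47 at CT6. Only 1 of the 3 CT6 arrays lay well above background, so its mid-day level is uncertain. Its fitted difference of 1.52 ± 0.25 (limma, adjusted p = 0.111) was between 0.39, with normexp, and 1.73 over the settings tried. Ciart, also called CHRONO, a repressor of the same complex, read -2.08, -1.89 and -1.98, against -2.83, -3.01 and -2.76 at CT6 (0.88 ± 0.15, limma adjusted p = 0.116). Both genes read higher in all 3 dusk mice, and their differences without mouse 11 were 1.45 and 0.84.

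Among the Period genes, Per2 read -0.87, -0.88 and -1.24 at CT12, against -1.59, -1.58 and -1.69 at CT6 (0.62 ± 0.11, limma adjusted p = 0.151). Per3 read -1.68, -1.33 and -1.59, against -1.99, -1.98 and -2.08 (0.49 ± 0.12, limma adjusted p = 0.316). Per1, which glucocorticoids also induce, read 3.64, 3.94 and 4.01, against 3.42, 3.47 and 3.64 (0.35 ± 0.13, limma adjusted p = 0.403), so its lowest dusk and highest mid-day values lay close together. Without mouse 11 the differences of Per2, Per3 and Per1 were 0.56, 0.38 and 0.31.

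The REV-ERB pair went opposite ways in these values. Nr1d1 (REV-ERB alpha) read 0.39, 0.68 and 0.57 at CT12, against 0.78, 0.94 and 0.93 at CT6 (-0.34 ± 0.10, limma adjusted p = 0.377). Nr1d2 (REV-ERB beta) read 1.73, 2.20 and 1.67, against 1.31, 1.22 and 1.34 (0.58 ± 0.13, limma adjusted p = 0.275). Neither group pair overlapped, the values without mouse 11 were -0.40 and 0.41, and the difference between the paralogs was not tested. Cry2 (-0.07) and Bhlhe40 (0.10), 2 further repressors, had overlapping groups, and Bhlhe41 a difference of 0.40 ± 0.28 (0.22 without mouse 11).

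Arntl, the gene of the activator BMAL1, read 0.49, 0.48 and 0.65 at CT12, against 1.09, 1.11 and 0.92 at CT6. All 3 dusk values were below all 3 mid-day values (-0.50 ± 0.11, limma adjusted p = 0.273, and -0.47 without mouse 11). Its partner Clock had a difference of 0.13 ± 0.08. Npas2, a paralog of Clock found in the forebrain, had -1.36 with all arrays and -0.44 without mouse 11, where its value was -5.93. Over the 4 activators the median was -0.46, or -0.30 without mouse 11.

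Of the D-box and ROR factors, Dbp read 5.41, 5.74 and 5.42 at CT12, against 4.88, 5.19 and 5.02 at CT6 (0.49 ± 0.17, limma adjusted p = 0.394, and 0.39 without mouse 11). Tef (0.08), Hlf (0.09) and the D-box repressor Nfil3 (0.08) differed by less than their standard errors, with 0.12, 0.28 and -0.15 without mouse 11. The median over the list was 0.09 with all arrays and 0.28 without that mouse. Rora, whose product activates Arntl, read 1.95, 2.89 and 1.33 at CT12, against 0.50, 0.98 and 1.07 at CT6. It was highest in mouse 11, and its difference was 1.21 with it and 0.79 without it. Rora is itself a member of the thalamus marker list, which was high in CT12 mice 10 and 11, so that list is not separate from its own values.

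**Figure D2:**
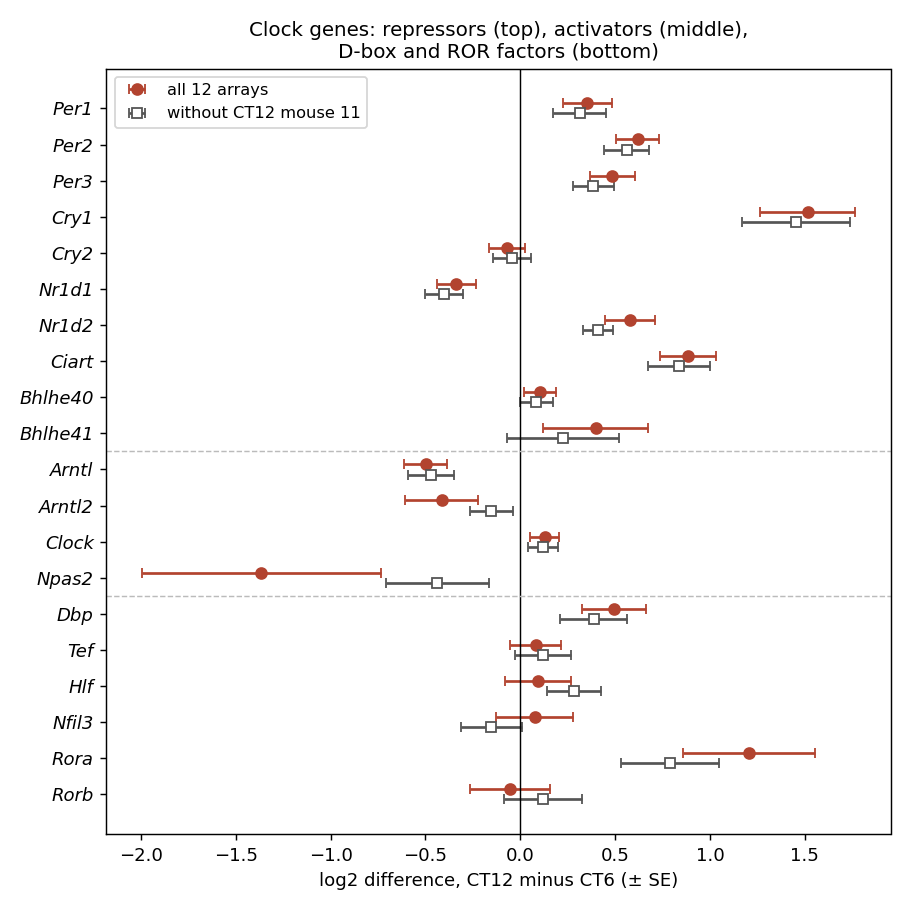
Log2 difference, CT12 minus CT6, with its standard error for 20 clock genes, with all 12 arrays (filled circles) and without CT12 mouse 11 (open squares). Dashed lines separate repressors, activators, and D-box and ROR factors. Among the repressors, Ciart lies at 0.88 and Cry1, dim at CT6, at 1.52, while Arntl lies at -0.50, and the points for Npas2 and Rora move clearly when mouse 11 is left out.

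Promoter windows of 4 clock repressors are shown because they carry the elements the loop acts through. Capitals mark the E-box CACGTG at -116, -58 and -44 in Ciart (chr3:95882229-95882478, - strand), at -60 in Cry1 (chr10:85185055-85185304, - strand) and at -166 in the first of 2 windows of Per1 (chr11:69098699-69098948, + strand). In Per3 (chr4:151044666-151044915, - strand) they mark the D-box TTATGTAA at -205 and -158.
Ciart: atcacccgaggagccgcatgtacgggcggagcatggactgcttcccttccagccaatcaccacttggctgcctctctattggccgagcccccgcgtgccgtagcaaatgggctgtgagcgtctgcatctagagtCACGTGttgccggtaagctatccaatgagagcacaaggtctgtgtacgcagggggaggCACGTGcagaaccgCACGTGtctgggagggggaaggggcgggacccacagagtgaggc
Cry1: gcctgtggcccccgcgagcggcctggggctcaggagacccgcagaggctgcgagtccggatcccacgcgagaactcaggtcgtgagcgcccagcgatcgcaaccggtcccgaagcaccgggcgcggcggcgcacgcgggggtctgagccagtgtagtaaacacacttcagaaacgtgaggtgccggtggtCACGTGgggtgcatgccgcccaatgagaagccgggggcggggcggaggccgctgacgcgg
Per1: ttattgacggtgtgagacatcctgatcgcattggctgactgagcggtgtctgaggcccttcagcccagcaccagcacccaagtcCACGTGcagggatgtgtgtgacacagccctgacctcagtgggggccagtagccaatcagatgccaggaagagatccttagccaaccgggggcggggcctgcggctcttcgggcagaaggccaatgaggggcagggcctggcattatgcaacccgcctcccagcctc
Per3: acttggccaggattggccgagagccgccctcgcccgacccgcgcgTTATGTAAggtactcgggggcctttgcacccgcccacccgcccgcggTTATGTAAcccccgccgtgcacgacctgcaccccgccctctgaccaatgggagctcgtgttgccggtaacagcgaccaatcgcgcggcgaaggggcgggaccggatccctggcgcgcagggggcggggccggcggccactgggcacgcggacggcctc

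The 8 repressors with a window had 9 windows, of which 4 held the E-box (in Per1, Cry1, Ciart and Bhlhe41) and 1 the D-box (Per3). Of all windows, 6.02% held the E-box and 0.819% the D-box. None of the 4 activators held an E-box in these windows.

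Known outputs of the clock were more often higher than lower at dusk. Of 21, 15 lay above 0 (44.9% of all genes), with a median of 0.16 (0.14 without mouse 11). At an unadjusted p under 0.05, 7 were higher (4.53% of all genes) and 2 lower (7.35%). Without mouse 11 these were 8 (2.91%) and 0 (4.96%). The groups did not overlap in 8 with CT12 higher (5.82%) and in 2 with CT12 lower (10.2%). Without mouse 11 these were 10 (8.6%) and 3 (14.8%). Tsc22d3 was the 1 that passed (0.0208% of all genes). Wee1, a cell cycle kinase under E-box control, read -0.55, 0.01 and -0.68 at CT12, against -0.95, -0.89 and -1.02 at CT6 (0.55, limma adjusted p = 0.374). Coq10b, a mitochondrial coenzyme Q protein, read -0.51, -0.04 and -0.24, against -0.83, -0.84 and -0.72 (0.53, limma adjusted p = 0.333). Klf15, a zinc finger factor of energy metabolism, had 0.48, and 0.74 without mouse 11. Without mouse 11, Wee1 had 0.34 and Coq10b 0.42. Clock modifiers, the kinases and ubiquitin ligases that time the repressors' decay, had a median of 0.02. At an unadjusted p under 0.05 there were 0 of 9 (11.9% of all genes). Their medians within slides ran from -0.11 to 0.22.

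Genes of energy supply included Slc2a1, which encodes the glucose transporter GLUT1 of brain vessels and astrocytes. It read 3.36, 3.53 and 3.30 at CT12, against 2.50, 2.69 and 2.75 at CT6, a difference of 0.75 ± 0.10 (1.68-fold, limma adjusted p = 0.0543, and 0.0909 without mouse 11). The neuronal transporter Slc2a3 had -0.26, the lactate transporter Slc16a7 -0.57 (-0.33 without mouse 11) and the glycolysis regulator Pfkfb3 0.44. Of the 10 glucose and lactate genes, 2 did not overlap with CT12 higher (5.82% of all genes) and 2 with CT12 lower (10.2%), and the list median was -0.08. Without mouse 11 Slc2a3 had -0.25 and Pfkfb3 0.25.

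Ada, which encodes adenosine deaminase, the enzyme that clears the sleep-promoting nucleoside adenosine, read -1.30, -1.45 and -1.55 at CT12, against -2.54, -2.57 and -2.44 at CT6. The groups lay about a log2 unit apart (1.08 ± 0.14, 2.12-fold, limma adjusted p = 0.0543, and 0.0909 without mouse 11). The adenosine receptor Adora2b had a difference of 0.51 (0.46 without mouse 11), and the median over 9 genes of adenosine handling was 0.24 (0.06 without mouse 11). Among 13 hypoxia genes, Adm, a vasodilator peptide, read -2.31, -1.86 and -2.65, against -2.96, -3.15 and -2.98 (0.76, limma adjusted p = 0.363, and 0.55 without mouse 11). With Hif3a it was 1 of 2 members higher at an unadjusted p under 0.05 (4.53% of all genes). The list median was 0.15 (0.01 without mouse 11).

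Lists of protein-folding genes had medians close to 0. The 24 chaperones and stress genes of the endoplasmic reticulum had a median of 0.06 in both fits, the 20 heat shock genes 0.01 and 0.00, and the 12 proteasome subunits 0.03 and 0.02, with 0 called by limma in each. At an unadjusted p under 0.05, where 4.53% of all genes were higher and 7.35% lower, 2 chaperone genes were higher and 1 lower, 2 heat shock genes were higher and 0 proteasome genes were either. Herpud1, a stress-induced membrane protein of the endoplasmic reticulum, had 0.51, Derl3, a degradation factor, -0.37, and Hspb1, a small heat shock protein, 0.74 (0.35, -0.40 and 0.50 without mouse 11). Rbm3, an RNA-binding protein that rises with cooling, read 3.64, 4.12 and 3.97 at CT12, against 3.39, 3.43 and 3.43 at CT6 (0.50, limma adjusted p = 0.372, and 0.39 without mouse 11). Cirbp, of the same family, had 0.19 (0.09 without it). The 16 cholesterol synthesis genes had a median of 0.03 (-0.06 without mouse 11), with 0 higher and 1 lower (Srebf2, -0.27) at an unadjusted p under 0.05.

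**Figure D3:**
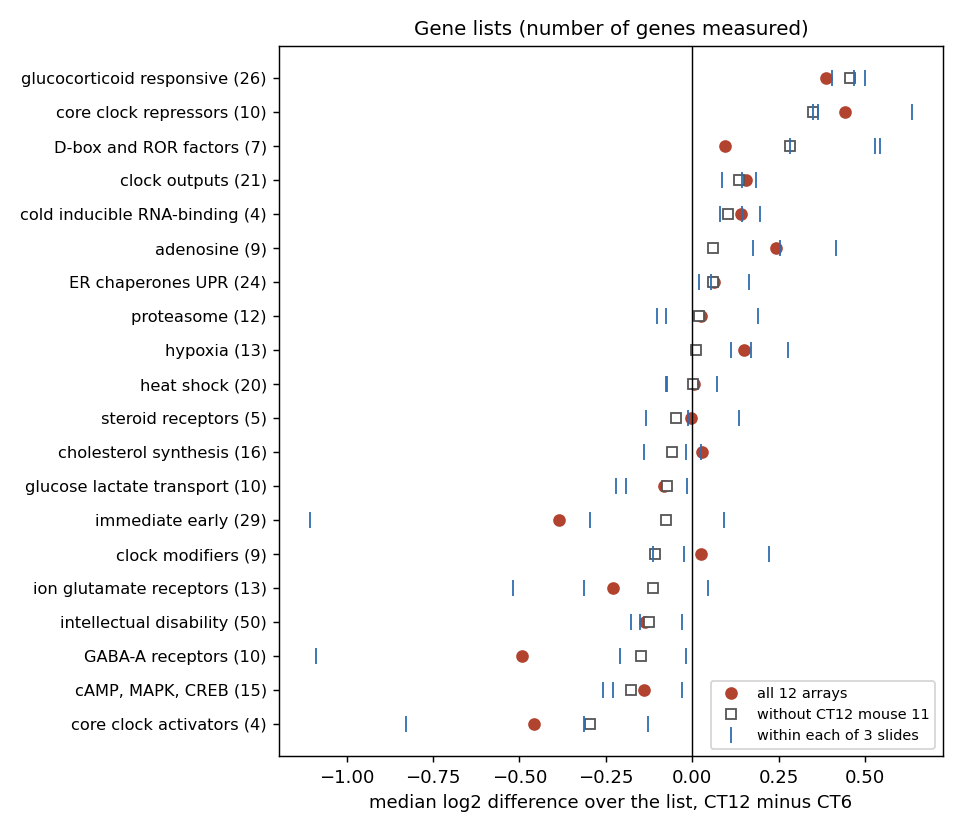
Median log2 difference, CT12 minus CT6, of 20 gene lists with the number of genes measured in brackets, with all 12 arrays (circles), without CT12 mouse 11 (squares) and within each slide (ticks). Glucocorticoid-responsive genes (0.39 and 0.46) and clock repressors (0.44 and 0.35) lie highest. Immediate-early, glutamate and GABA-A receptor lists lie below 0 with mouse 11, and less far below 0 without it (-0.08, -0.11 and -0.15).

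The values of neuronal genes depended on mouse 11. Immediate-early genes, which neurons switch on within minutes of firing, had a median of -0.39 over 29 members with all arrays and -0.08 without mouse 11. Without the 5 libraries high in choroid plexus genes it was 0.22, but there mouse 12 is the only CT12 mouse. The medians within slides were -0.29, -1.11 and 0.09, the slide of mouse 11 being the second. Fos read from -1.38 to -0.24 at CT12, against -2.23 to -1.09 at CT6, with overlapping groups. Arc read 3.43, 1.84 and 4.18, against 3.31, 2.88 and 3.44, and Npas4 0.70, -0.06 and 1.37, against 0.20, 1.43 and 1.07. Maff alone passed, and Gadd45g, a stress-induced regulator of growth arrest, had 0.42 (0.35 without mouse 11). In the other direction Nr4a2, an orphan nuclear receptor, read 2.26, 0.87 and 3.06, against 3.20, 3.63 and 3.60, and Bdnf, the neurotrophin, -0.02, -0.37 and 0.29, against 0.65, 0.64 and 0.40. Both were lower at CT12 in every mouse, with differences of -1.41 and -0.60 (-0.81 and -0.43 without mouse 11), and neither passed (limma, adjusted p = 0.381 and 0.377).

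The 13 ionotropic glutamate receptor genes had a median of -0.23 (-0.11 without mouse 11) and the 10 GABA-A receptor genes -0.49 (-0.15). Grin2b, an NMDA receptor subunit, read 1.80, -1.64 and 1.67 at CT12, against 2.18, 2.24 and 2.33 at CT6. Without mouse 11 its difference was -0.52 ± 0.09 (limma, adjusted p = 0.143), and with it -1.64 ± 0.71. Gabrd, the delta subunit that responds to neurosteroids, went the other way, with 3.23, 4.77 and 3.50, against 2.88, 3.05 and 2.75 (0.94, and 0.47 without mouse 11). The 15 genes of cAMP, MAPK and CREB signalling had a median of -0.14 (-0.18), and 14 lay below 0 without mouse 11 (52.3% of all genes). They include Pde10a, a phosphodiesterase (-0.35 in both fits), and Mapk3, the kinase ERK1 (-0.35, and -0.21 without mouse 11).

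Of 50 genes linked to intellectual disability, 40 lay below 0 (55.1% of all genes) with a median of -0.14, and 42 (52.3%) with a median of -0.12 without mouse 11. The differences ran from -0.52 to 0.68 without mouse 11, and from -2.79 to 0.87 with all arrays. At an unadjusted p under 0.05, 3 were higher (4.53% of all genes) and 8 lower (7.35%), or 2 (2.91%) and 5 (4.96%) without mouse 11, and 0 passed with limma. In 12 every CT12 value was below every CT6 value (10.2% of all genes), and in 17 without mouse 11 (14.8%). Foxp1, a forkhead transcription factor, read 3.15, 1.97 and 3.47 at CT12, against 3.69, 3.64 and 3.56 at CT6 (-0.77, and -0.32 without mouse 11). Auts2, a regulator of neuronal transcription, read 1.37, 0.98 and 1.27, against 1.55, 1.58 and 1.45 (-0.32, and -0.20 without it). Slc2a1, also on this list, was its highest member without mouse 11 (0.68).

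Markers of other cells and tissues moved as well, and their part in the results above was not tested. The 9 oligodendrocyte genes all lay above 0 (44.9% of all genes), with a median of 0.55 (0.37 without mouse 11). Of them, 0 passed the adjusted threshold with limma. At an unadjusted p under 0.05, 8 of them were higher (4.53% of all genes), or 7 without mouse 11 (2.91%). Mobp, a myelin protein, read 4.31, 4.79 and 4.11 at CT12, against 3.70, 3.52 and 3.60 at CT6, and Mbp, the myelin basic protein, 4.19, 4.73 and 4.23, against 3.96, 3.48 and 3.65. Both were higher in every dusk mouse, with differences of 0.80 and 0.68 (0.60 and 0.51 without mouse 11). The list medians within slides were 0.29, 1.04 and 0.44.

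For the remaining lists, the median over members of each value minus the gene's CT6 mean is given for CT12 mice 10, 11 and 12. It was -0.71, -4.98 and 0.25 for excitatory neurons, 0.74, 4.08 and 0.17 for cerebellum, and 1.12, 1.68 and 0.21 for thalamus. For choroid plexus it was 3.94, 2.50 and -1.68, against -1.51, -1.90 and 3.43 in CT6 mice 5, 6 and 7. Mouse 11 stood out in the first 2 lists, mice 10 and 11 shared the third, and the choroid plexus level split both groups. Prkcd, a thalamic relay neuron gene, read 3.08, 1.27 and -0.71, against -0.25, -0.46 and -0.49. In the endothelial list, Cldn5, the tight junction protein of brain vessels, read 2.45, 2.86 and 2.71, against 3.22, 3.27 and 3.02 (-0.50, limma adjusted p = 0.326, and -0.59 without mouse 11), while the list median was -0.06. Astrocyte genes had a median of 0.12 and microglial genes -0.38 (0.06 and -0.14 without mouse 11).

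**Figure D4:**
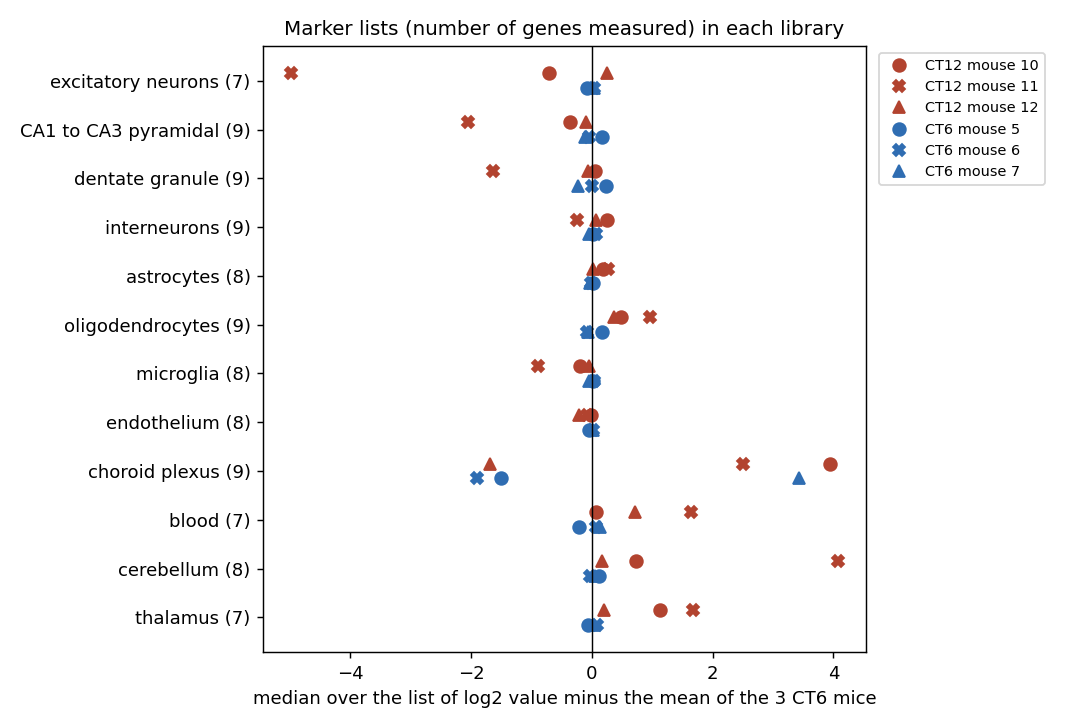
Marker lists in each of the 6 libraries, as the median over list members of the log2 value minus the mean of the 3 CT6 mice (red, CT12, drawn above blue, CT6). CT12 mouse 11 lies at -4.98 for excitatory neurons and 4.08 for cerebellum. Choroid plexus is high in CT12 mice 10 and 11 and in CT6 mouse 7, and oligodendrocyte markers are above 0 in all 3 CT12 mice.

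Without mouse 11, the genes that passed beside Tsc22d3 and Plin4 were mostly dim. Tmem52, a transmembrane protein, read -2.30 and -2.68 in CT12 mice 10 and 12, against -4.10, -4.16 and -3.86 at CT6, and rose by 1.55 ± 0.15 (limma, adjusted p = 0.0296). Mouse 11 read -1.32, so that with it the difference was larger (1.94) and the adjusted p higher (0.0778). Lao1, an L-amino acid oxidase, was at least 3.98-fold higher on the scale used here (limma, adjusted p = 0.0351). With normexp its difference was only 0.58 (limma, adjusted p = 0.249). With 0 of 3 CT6 arrays well above background, its probe entered the test through another time. Mouse 11 read -4.50 against -3.23 and -3.56 in the other CT12 mice. Wfdc6b, a whey acidic protein domain gene, read -6.89 and -7.05, against -4.78, -4.90 and -4.86 at CT6. On the scale used here it was at least 1.58-fold lower (limma, adjusted p = 0.0296), while with normexp its difference was -0.22 and did not pass. In mouse 11 it read -5.20 (with mouse 11 the limma adjusted p was 0.354). A noncoding transcript without a RefSeq symbol, probed at 93999912 to 93999971 of chromosome 11 (mm9), was higher by 0.84 ± 0.10 (limma, adjusted p = 0.0414). It was named after its values were seen. Leaving out a further CT12 library leaves 1 CT12 mouse, assumed to vary like the other groups. With a further library left out, the count of 6 became 38 without CT12 mouse 12, 11 without CT12 mouse 10, 2 without CT18 mouse 14, and 0 when the further library was any of the CT6 mice, CT18 mouse 15, CT0 mouse 1 or CT0 mouse 3 (limma, 1114 to 1980 genes at an unadjusted p under 0.05).

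The next genes by p without mouse 11 included Plekhf1, a phosphoinositide-binding protein of lysosomes and endosomes, which read -0.38, 0.61 and -0.56 at CT12, against -2.01, -2.69 and -1.90 at CT6 (2.09 ± 0.31, limma adjusted p = 0.0782). Cd83, an immunoglobulin-family surface protein, read 2.05, 3.11 and 1.95, against 1.43, 1.43 and 1.41, and Rin2, a regulator of RAB5, 0.93, 0.10 and 0.72, against 0.02, -0.02 and 0.08. Their differences were 0.95 and 0.55, or 0.58 and 0.79 without mouse 11. On the lower side, Pcdh12, a protocadherin of blood vessels, read -4.40, -3.96 and -4.48, against -3.39, -3.51 and -3.38 (-0.85 ± 0.17, limma adjusted p = 0.188). Vgll2, a cofactor of TEAD transcription factors, read -4.37, -4.54 and -4.14, against -3.55, -3.49 and -3.54 (-0.82 ± 0.12, limma adjusted p = 0.0689). Cd33, a sialic acid receptor of microglia, read -3.99, -4.59 and -4.31, against -3.35, -3.29 and -3.28 (-0.99 ± 0.15, limma adjusted p = 0.0836). These 6 genes were picked for their p, so their separation is no result of its own, and none passed with either set of arrays. Without mouse 11, Plekhf1 had 1.73, Pcdh12 -1.01, Vgll2 -0.73 and Cd33 -0.85. Fam171a2, 8430432A02Rik, Kif12, Kctd4 and Mst1r completed the lower side, with differences of -0.75, -0.38, -1.20, -1.31 and -1.09 with all arrays and -0.65, -0.73, -1.95, -0.57 and -0.49 without mouse 11.

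The step from mid-day to dusk was also set against the 6-hour step on the other side of the cycle, CT0 minus CT18, which shares no arrays with it. The contrast of the steps holds the CT12 minus CT6 difference itself, and equals CT12 and CT18 together against CT6 and CT0. For Tsc22d3, Plin4 and Maff, already called, it is therefore no independent result. The 2 steps differed for 8 genes (limma, 0.0332% of the genes tested), 7 with a positive and 1 with a negative difference, and without mouse 11 for 22 (0.0913%), among them the same 8. Tsc22d3 had a step of 1.23 from CT6 to CT12 and of -0.57 from CT18 to CT0, a difference between steps of 1.80 ± 0.18 (adjusted p = 0.0215). Plin4 had 2.50 and -0.99, and Per2 0.62 and -0.71, so that the 3 genes read higher at the end of one step and lower at the end of the other. Maff, with only a bound at CT6, had a difference between steps that fell to 0.47 with normexp (limma, adjusted p = 0.585), against 2.35 without that correction. Per2 thus entered through the contrast of the steps, 1.33 ± 0.16 (limma, adjusted p = 0.0409), although neither its CT12 and CT6 values nor those of any other clock gene passed on their own.

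Fam83d, which helps chromosomes line up on the mitotic spindle, read -4.51, -4.83 and -4.94 at CT12, against -6.30, -6.67 and -6.29 at CT6. On the scale used here it was at least 1.93-fold higher at CT12 (limma, adjusted p = 0.0836). With normexp its difference was only 0.29 (limma, adjusted p = 0.416). With 0 of 3 arrays well above background at CT6 and at CT0, its probe entered the test only through CT12 or CT18. Those are the times set against CT6 and CT0 in the contrast of the steps. Dok7, an adaptor of the receptor kinase MuSK, had steps of 0.60 and -0.45, and Lrrc29, a leucine-rich repeat protein, -0.60 and 0.72. These 2 genes were named after their values were seen. Sdf2l1, a chaperone cofactor of the endoplasmic reticulum, had 0.27 and -1.31, and its means were -0.32 at CT0, -0.83 at CT6, -0.56 at CT12 and 0.99 at CT18. For that gene the contrast came mainly from the CT18 mice. The step count was 0 with slide as a block (limma, 2844 genes at an unadjusted p under 0.05), 22 without CT12 mouse 11, 5 without CT12 mouse 12, 1 and 2 without CT0 mouse 1 and 2, and 0 without CT0 mouse 3, CT6 mouse 5, 6 or 7, CT12 mouse 10 or CT18 mouse 14 or 15 (limma, 1285 to 2601 genes at an unadjusted p under 0.05).

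**Figure D5:**
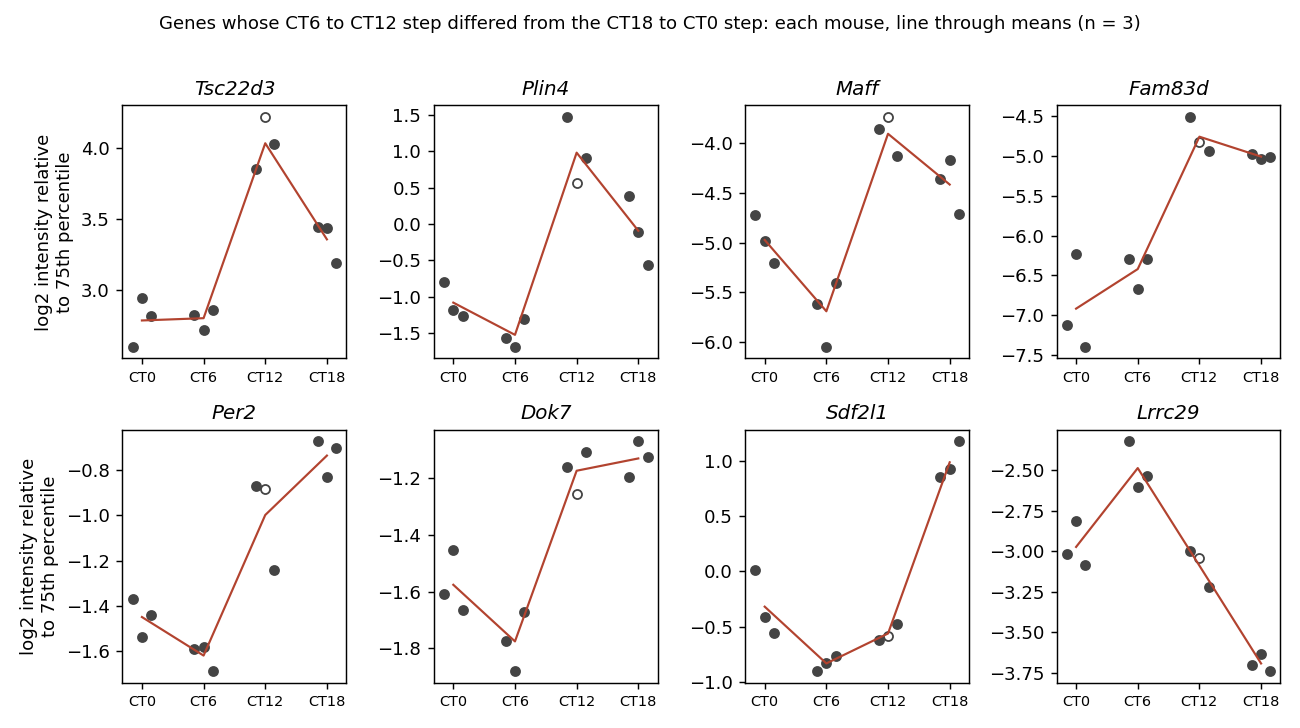
The 8 genes whose CT6 to CT12 step differed from their CT18 to CT0 step, on the same log2 scale in each mouse at 4 circadian times. Red lines join the means of 3 mice, and the open circle is CT12 mouse 11. Tsc22d3, Plin4 and Maff have their highest mean at CT12, Per2 and Sdf2l1 at CT18, and Lrrc29 at CT6.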

How the data were processed

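Each sample was 1 mouse on 1 array, grouped by the circadian time in its title. Per the file headers, the authors quantified spots with Agilent Feature Extraction 10.7.3.1. Its processed signal, an intensity, already had the background subtracted. Per the file headers, the spot flags used (other, 0 or 1) mark spots well above background, saturated spots and outliers, and mm9 is the build of the probe coordinates. In the deposited value table, the values are log2 with column medians of 5.369 to 5.370, and the step that made it is not given in the sources used here. Each of its columns correlated best with its own array (r from 0.994), and the near-equal medians show a shared centre, while the method behind it stays unknown. It was used as an alternative.

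Here, each array's 75th percentile was subtracted from its log2 values, without outlier spots, and spots of a probe were averaged. Of 55681 probes, 146 lacked a value, and 33966 remained after requiring a signal well above background on all 3 arrays of 1 time or more. Among several probes of a gene, that of highest mean was used (24090 genes, 16094 with a RefSeq symbol from the GRCm38.p6 table). R 4.3.3 with limma 3.58.1 fitted a mean per time over 12 arrays, or 11 without CT12 mouse 11. P values were adjusted by Benjamini-Hochberg over all genes with a threshold of 0.05. An exact permutation test of 3 mice against 3 cannot go below 0.1, so none was used. In simulated data of 24090 genes, the CT12 versus CT6 fit found 20% of the 50 genes shifted 1.5-fold, 52% at 2-fold, 82% at 3-fold and 86% at 4-fold. Without mouse 11 the shares were 8%, 40%, 76% and 76%. Unchanged genes called numbered 3 and, without mouse 11, 7. The simulated noise was normal and independent between genes, with the same variance on every array. It held no library that stood apart, no tissue or slide effect shared by genes and no background floor. The shares are therefore not the power of the real comparison.

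The members and lists were chosen with earlier results of these data known. The rule named all measured clock genes, the genes that passed, the 4 members of each process list with the smallest p without mouse 11, the 10 higher and 10 lower genes with the smallest p there, and Slc2a1, Pcdh12, Ada and Fam83d. That made 101 genes, and not all of them are described. Dok7, Lrrc29, a noncoding transcript and further list members that are described were chosen after their values were seen. One gene of the clock lists is not reported here. Genes not measured were Hsd11b2, Hspa1b, Gabra6, Iyd, Slc4a5, Tmem72, Hbb-b1, Cbln3 and Gbx2. Alternatives were quantile normalization, median centring, normexp, the deposited values, 2 changes to the filter, the mean over probes, only 6 arrays, other variance models, slide as a block, choroid plexus level as a covariate, leaving out each library, and, chosen after seeing the data, leaving out 5 libraries high in choroid plexus genes.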

Additional observations from a re-analysis of the deposited data

Results flagged for a closer look

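The 8 genes below stood out because the CT6 to CT12 step differed from the CT18 to CT0 step in a test of the difference itself (limma, Benjamini-Hochberg over 24090 genes). The test holds the CT12 minus CT6 difference, so it is no independent result for Tsc22d3, Plin4 and Maff. The difference between the steps, on the log2 scale, was 1.80 for Tsc22d3 (adjusted p = 0.0215), 3.56 for Fam83d (0.0215), 3.49 for Plin4 (0.0311), -1.32 for Lrrc29 (0.0409), 1.33 for Per2 (0.0409), 2.35 for Maff (0.0411), 1.05 for Dok7 (0.0487) and 1.58 for Sdf2l1 (0.0495). Without CT12 mouse 11 the values were 1.71, 3.60, 3.70, -1.34, 1.27, 2.26, 1.09 and 1.59, and each passed. Maff and Fam83d were not well above background on any CT6 array, and Fam83d on none at CT0. Maff met the filter at CT12, and Fam83d only at CT12 or CT18, the times on the higher side of the contrast. For both genes, entering the test was thus tied to the contrast itself. With no filter on dim probes no gene passed the test of the steps. The adjusted p (limma) was then 0.132 for Maff and 0.0761 for Fam83d. With normexp their differences between steps were each 0.47 (limma, adjusted p = 0.585 for Maff and 0.702 for Fam83d).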

How the results depend on the processing

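The comparison called 5 genes with all arrays, 6 without CT12 mouse 11, and 8 in the contrast of the steps. In that order, these counts were 3, 1 and 5 with quantile normalization, 1, 21 and 3 with median centring, 3, 1 and 5 with the deposited table, and 0, 1 and 0 with no filter on dim probes (limma, 2610 genes at an unadjusted p under 0.05 for the first and 2013 for the last). With normexp 8 and 14 passed in the first and the last, and with array weights, estimated gene by gene, 33 (27 higher and 6 lower, the 5 called genes among them), 0 (1249 at an unadjusted p under 0.05) and 53. With slide as a block they were 0, 2 and 0 (3703 and 2844 at an unadjusted p under 0.05 for the first and last). The filter on all 12 arrays left 3 of the first count, and only the 6 arrays 0 and 0 of the first and second (1329 and 1689). The trended, robust variance gave 15 for the second and 20 for the last. With the choroid plexus level as a covariate, 2 and 3 passed in the first and second, and with that covariate and without mouse 11, 3 in the first and 21 in the last. Without the 5 libraries high in choroid plexus genes, an alternative chosen after seeing the data that leaves 1 CT12 mouse, assumed to vary like the other groups, all 3 counts were 0 (2255, 2255 and 2629 at an unadjusted p under 0.05). Leaving out 1 library at a time gave 0 to 76, 0 to 38 and 0 to 22. The cause of these shifts was not tested, apart from the fewer arrays or genes by construction. No difference of a named gene changed sign while it passed. Of the repeats over named genes, 2576 stayed on their side of the threshold in the same direction or without a call, 39 gained a call and 81 lost one. CT12 and CT6 share no replicate numbers, but each slide held 1 mouse of each time, so the slide block given above is the paired analysis, and no gene passed in it with all arrays. Dim probes lose most of their difference under normexp, for example, with all arrays, Lao1 (0.42), Fam83d (0.29) and Wfdc6b (-0.19). Without mouse 11, Lao1 had 0.58 and Wfdc6b -0.22 under normexp.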
